A study of Homo sapiens with 34 samples.

Results

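A group of 10 named genes whose read counts set the knockdown lines apart from wild-type (WT) cells at the start of cardiac differentiation was followed over all lines and days. They were ANXA1, CST1, CXCL8, PAX7, CCDC125, DMRTB1, SLC5A2, ANKRD1, MAEL and ZNF560, 10 of the 23189 gene symbols in the count table, and each was represented by its RefSeq row of largest total. They were chosen by their read counts, as genes that differed most between a knockdown line and WT at day 0 or day 2, so all their differences from WT on those 2 days are given as a description, without p-values. The cells were H1 human embryonic stem cells, an established pluripotent line, carrying a lentiviral small hairpin RNA (shRNA) against NKX2-5, ZEB2 or ZNF503, all selected in puromycin. WT cells were controls with a GFP shRNA or with the empty vector, and the labels do not say which. The cells were taken at day 0 as pluripotent cells and at days 2, 6 and 10 of a protocol with CHIR99021 for the first day, IWP2 from day 2 and insulin from day 7. Each knockdown was 1 line made with 1 shRNA, so the effect of the targeted gene, of the shRNA and of the line cannot be told apart. Each group had 2 libraries, the ZNF503 line had none at day 10, and day 10 of WT and of the ZEB2 line used replicates 3 and 4 only.

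As background, the genes come from unrelated pathways and few of them are known for a role in early heart cells. MAEL, DMRTB1 and ZNF560 are nuclear or germ cell genes: MAEL (maelstrom) acts in silencing of transposable elements by piRNAs, DMRTB1 is a DM-domain transcription factor of male germ cells, and ZNF560 is a C2H2 zinc finger gene. ANXA1 (annexin A1), CXCL8 (interleukin-8) and CST1 (cystatin SN) encode a calcium-dependent phospholipid-binding protein, a neutrophil attractant and a secreted inhibitor of cysteine proteases. PAX7 is a transcription factor of neural crest and muscle stem cells, ANKRD1 encodes the cardiac ankyrin repeat protein and is a target of YAP and TEAD, and SLC5A2 encodes the renal glucose transporter SGLT2. CCDC125 encodes a coiled-coil protein.

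The 30 libraries held 9189943 to 90814577 counts (median 32191176), with the day 10 libraries the shallowest at 9189943 to 29549874. Levels are given as CPM (counts scaled to library size), and 3 counts were worth 0.0333 to 0.0795 CPM at day 0, 0.0334 to 0.185 at day 2, 0.0498 to 0.222 at day 6 and 0.0931 to 0.327 at day 10. Intervals given for ratios of a few counts cover counting error only, and may be too narrow because counts of 2 were more frequent than counts of 1 over the table (22266 against 12893 values). The targeted genes were at most at 16 counts in WT at day 0, which gives no check of the labels there. At day 6 NKX2-5 in its line was at 1.30% ± 0.246 (SD, n = 2) of the WT mean and ZNF503 in its line at 7.00% ± 0.285, and ZEB2 in its line was at 58.6% ± 2.15 at day 6 and 49.2% ± 0.0184 at day 10. At day 2 ZEB2 was at 65.8% ± 5.52 and ZNF503 at 89.6% ± 35.5 of WT in their own lines. The low levels at day 6 were not particular to the targeted line: ZNF503 was at 0.745 CPM (mean, n = 2) in the NKX2-5 line and 0.632 in its own, against 9.02 in WT, NKX2-5 was at 2.49 in the ZNF503 line and 0.878 in its own, against 67.3 in WT, and ZEB2 was at 20.5 in the NKX2-5 line, 11.9 in the ZNF503 line and 55.9 in its own, against 95.4 in WT. At day 0 the 7 matched markers of pluripotent cells summed to 6746 to 6934 CPM in WT. The sums lay under WT in the NKX2-5 line (5815 to 6159) and the ZNF503 line (5804 to 5908). In the ZEB2 line they lay above it (7076 to 7321). No marker was at or under 3 counts throughout a group. In each line 0 of 7 were called, beside 4.03% (NKX2-5), 2.20% (ZEB2) and 2.56% (ZNF503) of all genes.

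A gene counted as called when it passed the study's threshold for the day with edgeR's quasi-likelihood test, which was 2-fold at a false discovery rate (FDR) of 10% at day 0, 4-fold at 10% at day 2, and 8-fold at 1% at days 6 and 10. At day 0 all 10 genes passed the filter on low counts, and those past these limits, which is no test of genes chosen for it, numbered 6 in the NKX2-5 line, where 4.03% of all genes tested were called, 6 in the ZEB2 line, where 2.20% were, and 7 in the ZNF503 line, where 2.56% were. At day 2, 7 of the 10 passed the filter on low counts, and 3 were past the limits in the NKX2-5 line beside 1.19% of all genes, 2 in the ZEB2 line beside 0.133% and 2 in the ZNF503 line beside 2.80%. These counts follow from how the genes were chosen and support nothing. At day 0 the NKX2-5 line held the highest levels of DMRTB1, MAEL and ZNF560. The ZEB2 line held the lowest CCDC125 and the highest CST1, and the ZNF503 line the highest PAX7 and SLC5A2. Many shifts of that day were shared between lines. ANXA1 and CXCL8 lay above WT in the NKX2-5 and ZEB2 lines, and PAX7 in the ZEB2 and ZNF503 lines. ANKRD1 and CST1 lay under WT in the NKX2-5 and ZNF503 lines. ZNF560 did so in the ZEB2 and ZNF503 lines, and CCDC125 in every knockdown line. With 2 libraries per group, ranges often do not overlap. Over the comparisons with WT on the 4 days, 23.7% to 40.7% of all genes tested lay wholly above WT. Another 15.9% to 39.7% lay wholly below it. Groups that do not overlap are therefore only described below.

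**Figure D1:**
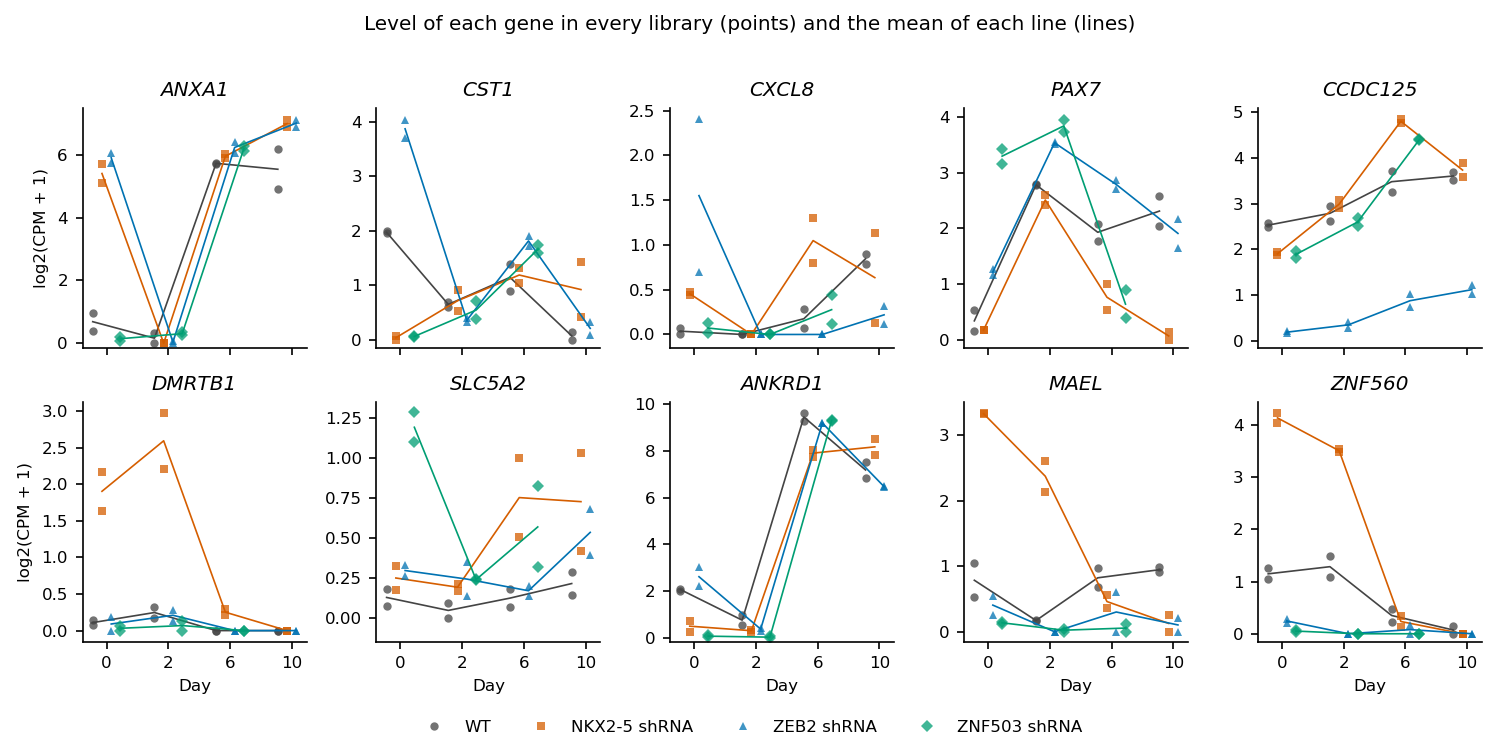
Level of each of the 10 genes as log2(CPM + 1) on the y axis against day on the x axis (the 4 days evenly spaced), with 1 point per library and a line through the mean of each cell line (WT, NKX2-5, ZEB2 and ZNF503 shRNA). The separation of the lines at day 0 is gone by day 6 for DMRTB1 and ZNF560, which sit at or near 0 in all libraries, while CCDC125 stays below the other lines in the ZEB2 shRNA libraries on all 4 days.

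MAEL, DMRTB1 and ZNF560 were high in the NKX2-5 line at days 0 and 2 and low everywhere at days 6 and 10. They lie apart from each other in the genome (GRCh37): MAEL at chr1:166944819-166991451 on the plus strand, DMRTB1 at chr1:53925072-53933161 on the plus strand and ZNF560 at chr19:9577031-9609292 on the minus strand. The promoter windows below (RefSeq, GRCh38.p14, 250 bases before the start and 50 after it, 5′ to 3′ on the gene's strand) are shown because the 3 genes moved together while their starts differ in CpG content, and capitals mark each CpG. For MAEL the second of 2 annotated starts is printed.
MAEL, chr1:166989030-166989329, plus strand: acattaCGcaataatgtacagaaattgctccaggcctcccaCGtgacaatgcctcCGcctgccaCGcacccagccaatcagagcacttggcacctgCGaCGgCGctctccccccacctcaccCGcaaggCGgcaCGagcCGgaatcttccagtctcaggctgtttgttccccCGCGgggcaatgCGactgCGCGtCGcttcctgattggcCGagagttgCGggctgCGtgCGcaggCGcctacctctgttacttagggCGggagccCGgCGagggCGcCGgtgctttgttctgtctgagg
ZNF560, chr19:9498567-9498866, minus strand: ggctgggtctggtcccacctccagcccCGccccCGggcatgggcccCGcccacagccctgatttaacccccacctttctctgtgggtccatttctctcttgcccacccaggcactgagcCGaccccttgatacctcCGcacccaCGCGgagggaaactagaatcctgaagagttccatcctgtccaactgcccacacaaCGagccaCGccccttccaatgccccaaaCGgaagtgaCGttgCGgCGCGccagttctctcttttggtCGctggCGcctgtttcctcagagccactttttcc
DMRTB1, chr1:53459149-53459448, plus strand: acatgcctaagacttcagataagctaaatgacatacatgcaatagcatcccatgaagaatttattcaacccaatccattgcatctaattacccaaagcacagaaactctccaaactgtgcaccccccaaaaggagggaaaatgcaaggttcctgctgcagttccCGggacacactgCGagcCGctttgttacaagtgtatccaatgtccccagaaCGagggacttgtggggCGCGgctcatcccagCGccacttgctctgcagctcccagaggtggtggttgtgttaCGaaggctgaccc
The windows held 27, 16 and 8 CpGs, against a median of 14 over 35116 promoter windows, so DMRTB1 lay below the median and the others above it.

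MAEL was at 9.10 and 8.98 CPM in the NKX2-5 line at day 0, at 1.06 and 0.443 in WT, 0.200 and 0.463 in the ZEB2 line and 0.0896 and 0.109 in the ZNF503 line. Both NKX2-5 libraries were above all others, 11.8-fold over WT (log2 3.56), the ZEB2 libraries overlapped WT, and the ZNF503 libraries lay 7.29-fold under it. At day 2 the NKX2-5 line held 5.10 and 3.40 CPM, against 0.129 and 0.124 in WT, 0 in both ZEB2 libraries and 0.0334 and 0 in the ZNF503 line. The fitted fold over WT was then 32.5 (log2 5.02), imprecise because WT held 4 and 2 counts. At day 6 the order changed: WT held 0.955 and 0.600 CPM, the NKX2-5 line 0.479 and 0.280, the ZEB2 line 0 and 0.519, and the ZNF503 line 0 and 0.0812. WT was then above all other libraries, at 22 and 25 counts. In the ZNF503 line the 2 counts gave a ratio to WT of 16.1 (95% interval 4.20 to 136), log2 −3.98 ± 1.39 (SE), edgeR adjusted p = 0.0287, which passed a 5% FDR but not the 1% of the day, and it did pass that when no low-count filter was used (adjusted p = 0.00127). Even the 5% was missed without ZNF503 replicate 1 (adjusted p = 0.169), ZNF503 replicate 2 (0.0818) or WT replicate 1 (0.0828). At day 10 WT held 0.985 and 0.871 CPM, the NKX2-5 line 0.192 and 0 and the ZEB2 line 0.155 and 0. These differences had log2 fold changes of −3.20 ± 1.25 and −3.35 ± 1.21 and edgeR adjusted p = 0.073 and 0.0963.

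ZNF560 held 17.7 and 15.5 CPM in the NKX2-5 line at day 0, 1.06 and 1.38 in WT, 0.222 and 0.149 in the ZEB2 line and 0.0448 and 0.0274 in the ZNF503 line. The 4 lines did not overlap: the NKX2-5 line was 13.3-fold over WT, the ZEB2 line 6.47-fold under it and the ZNF503 line, at 2 counts per library, under it by a ratio of 36.0 (13.6 to 135). At day 2 it held 10.1 and 10.5 CPM in the NKX2-5 line, 1.81 and 1.11 in WT, and no count in any library of the ZEB2 and ZNF503 lines. The NKX2-5 line was 6.70-fold over WT, and the lines without a count were at least 18.9-fold (ZEB2) and at least 17.3-fold (ZNF503) lower, taking 3 counts as the floor. From day 6 on it was at most at 0.384 CPM in any library, at day 10 only 1 WT library held a count (2 counts), and the gene did not enter the tests of either day.

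DMRTB1 held 2.11 and 3.50 CPM in the NKX2-5 line at day 0, 0.106 and 0.0521 in WT, 0.133 and 0 in the ZEB2 line and 0.0448 and 0 in the ZNF503 line. At day 2 the NKX2-5 line held 3.64 and 6.84 CPM, WT 0.129 and 0.247, the ZEB2 line 0.219 and 0.0966 and the ZNF503 line 0.100 and 0. The NKX2-5 libraries stood apart from all others on both days, 34.2-fold and 29.1-fold over WT, while the ZEB2 libraries overlapped WT and the ZNF503 libraries lay just under it. WT held 4 and 2 counts at day 0 and 4 and 4 at day 2, so these folds are imprecise. At day 6 the NKX2-5 line kept 6 and 8 counts (0.221 and 0.160 CPM), every other library of that day had none, and at day 10 no library had any.

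Over the 30 libraries the 3 genes had similar profiles, with Pearson r of log2(CPM + 1) of 0.914 for DMRTB1 and ZNF560, 0.913 for MAEL and ZNF560 and 0.843 for DMRTB1 and MAEL. Of all 16891 genes compared, OC90 was most like DMRTB1 (r = 0.94), with ZNF560 next. ZNF492 was most like ZNF560 (0.944), followed by OC90 (0.925), and ZNF560 and then ZNF492 (0.869) were most like MAEL. The libraries share cell lines and days, so these values describe the same few groups. Of the other genes of the germline and piRNA pathway 2 of 20 tested were called in the NKX2-5 line at day 0, both higher (TEX14, log2 1.71 ± 0.31, edgeR adjusted p = 0.00413, and TDRD6, 2.00 ± 0.63, adjusted p = 0.05), with a median over the list of 0.64 beside 0.00 for all genes. In that line 4.03% of all genes were called at day 0. At day 2, 1 of 18 was higher (MOV10L1, 2.43 ± 0.62) and 2 lower (PLD6, and DAZL with 0 counts against 2 to 4 in WT), beside 1.19% of all genes. In the same line 2 of 15 were higher at day 6 (TDRD1, 5.30 ± 0.99, and DPPA3, 3.10 ± 0.24), beside 4.71% of all genes called. At day 10, 1 was higher (MOV10L1, 4.86 ± 0.93) and 1 lower (TEX14, −3.65 ± 0.77), beside 7.31%. In the ZEB2 line at day 0 TEX14 was higher (2.07 ± 0.30) and MOV10L1 lower (−3.43 ± 1.01), and in the ZNF503 line TDRD1 and GTSF1 were lower. At day 2 none was called in the ZEB2 line, and in the ZNF503 line DAZL was higher (3.20 ± 0.68) and TEX101 (−2.94 ± 0.86) and STK31 (−2.82 ± 0.27) were lower. In the ZEB2 and ZNF503 lines 2.20% and 2.56% of all genes were called at day 0, and 0.133% and 2.80% at day 2. Of the DMRT family 0 of 2 tested and of 10 zinc finger genes near ZNF560 none was called in any line at day 0, 2 or 6, beside 0.133% to 4.71% of all genes.

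CCDC125 was low in the ZEB2 line in every library of every day. It lies on the minus strand at chr5:68576002-68628636 (GRCh37). Its promoter window is printed because this was the gene with the most lasting difference, with capitals on its only match to the E-box CACGTG (read the same on both strands), a motif that 7.26% of promoter windows hold and that contains a CpG, of which the window has 24.
CCDC125, chr5:69332752-69333051, minus strand: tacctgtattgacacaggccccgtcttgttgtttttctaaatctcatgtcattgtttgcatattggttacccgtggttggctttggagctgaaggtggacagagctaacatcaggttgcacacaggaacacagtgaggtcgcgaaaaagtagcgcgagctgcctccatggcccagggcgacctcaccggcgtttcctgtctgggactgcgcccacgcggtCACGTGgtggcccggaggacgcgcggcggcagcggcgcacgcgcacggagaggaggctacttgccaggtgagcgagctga
At day 0 CCDC125 held 0.122 and 0.164 CPM in the ZEB2 line, 4.58 and 4.97 in WT, 2.67 and 2.82 in the NKX2-5 line and 2.51 and 2.93 in the ZNF503 line. The ZEB2 libraries lay 33.9-fold under WT, and the other lines, which overlapped each other, were also under WT. At day 2 the ZEB2 line held 0.219 and 0.338 CPM, WT 6.71 and 5.19, the NKX2-5 line 7.44 and 6.47 and the ZNF503 line 4.72 and 5.42. The ZEB2 line was 21.5-fold under WT, and the other lines overlapped it.

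At day 6, a day the choice of genes did not use, CCDC125 held 0.664 and 1.04 CPM in the ZEB2 line, 8.47 and 12.1 in WT, 25.9 and 27.7 in the NKX2-5 line and 20.0 and 20.2 in the ZNF503 line. No groups overlapped. In the ZEB2 line it was 13.5-fold lower than in WT (log2 −3.76 ± 0.27, edgeR adjusted p = 3.82e-06) and the only call among 8 genes tested, where 0.462% of all genes were called. This call held in every alternative, with log2 values of −3.98 to −3.31 when 1 library was left out. The same gene was higher than WT in the NKX2-5 line (1.36 ± 0.20, adjusted p = 0.000122) and in the ZNF503 line (0.94 ± 0.20, adjusted p = 0.00184), both past a 5% FDR but under 8-fold. At day 10 it held 1.33 and 1.03 CPM in the ZEB2 line, 10.4 and 12.0 in WT and 11.0 and 13.7 in the NKX2-5 line. The ZEB2 libraries were 9.36-fold lower than WT (−3.23 ± 0.34, adjusted p = 0.00252), the only call among 7 genes tested beside 1.46% of all genes, and the NKX2-5 libraries overlapped WT. With any 1 of the 4 libraries left out the day 10 fold stayed between log2 −3.42 and −3.05 and the adjusted p rose to between 0.0228 and 0.0383, above 1%.

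Other readouts of the ZEB2 line also differed from WT at days 6 and 10. The 8 trophoblast markers summed to 226 and 243 CPM at day 6 against 96.4 to 112 in WT, with 1 marker at or under 3 counts in each group, and to 322 and 339 at day 10 against 65.2 to 79.5 in WT and 122 to 138 in the NKX2-5 line. The list holds HAND1, which the paper counts among core cardiogenic factors, and GATA3, to which it gives a likely activity in the cardiac lineage. The sums are therefore not particular to trophoblast cells. At day 6 none of 5 tested was called in the ZEB2 line, beside 0.462% of all genes. At day 10, 3 of 7 tested were called higher in the ZEB2 line (VTCN1, TFAP2C and KRT7), beside 1.46%. At day 0 their sums were 31.6 to 35.0 in the ZEB2 line and 26.2 to 27.9 in WT, and none of 4 tested was called. CCDC125 in the ZEB2 line had a mean (n = 2) of 0.143 CPM at day 0, 0.851 at day 6 and 1.18 at day 10. The part of these markers in the later values was not tested. In bulk samples fewer cells of a type and less RNA per cell cannot be told apart.

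**Figure D2:**
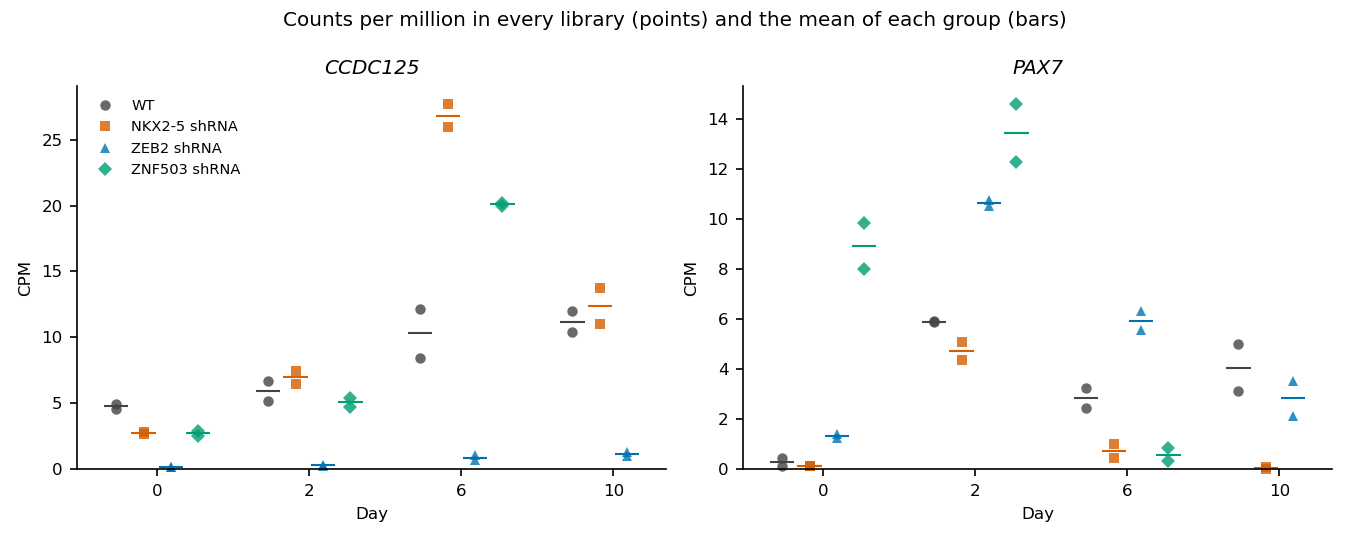
CPM of CCDC125 (left) and PAX7 (right) on linear axes from 0 against day, with 1 point per library, a bar at the mean of each group and a symbol per cell line. CCDC125 in the ZEB2 shRNA libraries stays at 0.122 to 1.33 CPM over the 4 days, and PAX7 reaches its highest values, 12.3 and 14.6 CPM, in the ZNF503 shRNA libraries at day 2.

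PAX7 (chr1:18957340-19075360, plus strand) was high in the ZNF503 line at day 0, was at 4.34 CPM or more in every library at day 2, and was lower in that line than in WT at day 6. It was the only gene with several RefSeq rows, 3, of which the largest was used. At day 0 it held 9.83 and 7.99 CPM in the ZNF503 line, 1.41 and 1.24 in the ZEB2 line, 0.106 and 0.443 in WT and 0.128 and 0.125 in the NKX2-5 line. The ZNF503 line was 31.9-fold and the ZEB2 line 4.72-fold over WT, and the NKX2-5 libraries lay within the range of WT. At day 2 the gap had closed in the main: 12.3 and 14.6 CPM in the ZNF503 line, 10.8 and 10.5 in the ZEB2 line, 5.87 and 5.93 in WT and 4.34 and 5.10 in the NKX2-5 line. The ZNF503 line was then 2.20-fold and the ZEB2 line 1.77-fold over WT, and no pair of lines overlapped.

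At day 6 PAX7 held 6.32 and 5.56 CPM in the ZEB2 line, 2.43 and 3.24 in WT, 0.995 and 0.441 in the NKX2-5 line and 0.307 and 0.853 in the ZNF503 line. The last 2 lines overlapped and lay under WT, and the ZEB2 line lay above it. PAX7 was lower than WT in the NKX2-5 line (log2 −2.08 ± 0.44, edgeR adjusted p = 0.00174) and in the ZNF503 line (−2.26 ± 0.47, adjusted p = 0.00159) at a 5% FDR, under the 8-fold limit of the day. With the 3 RefSeq rows summed, the value in the NKX2-5 line was −1.67 (adjusted p = 0.0504). Without ZNF503 replicate 2 the value in that line was −3.23 (adjusted p = 0.00286) and past 8-fold. In the ZEB2 line it was not past either threshold (1.07 ± 0.38, adjusted p = 0.102). At day 10 PAX7 held 0 and 0.0952 CPM in the NKX2-5 line (0 and 2 counts), 3.11 and 5.01 in WT and 3.51 and 2.14 in the ZEB2 line. The NKX2-5 line was lower than WT by a ratio of 77.9 (21.0 to 651), log2 −6.22 ± 0.89, adjusted p = 0.00186, and this was the only call among its 7 genes tested, beside 7.31% of all genes. Without WT replicate 3 or 4 the adjusted p was 0.0130 and 0.0176, above 1%. At day 10 the 8 myeloid markers summed to 25.9 to 33.3 CPM in the NKX2-5 line against 3.37 to 4.25 in WT, with 3 and 4 of them at or under 3 counts and 2 of 3 tested called higher (CSF1R and CD68), and their part in this result was not tested. The ZEB2 and WT libraries overlapped. Of 9 other tested muscle precursor and neural crest genes none was called in any line at day 0 or day 2, beside 0.133% to 4.03% of all genes. Within the PAX family PAX6, a neural factor, was called at day 0 in the NKX2-5 line (higher, 1.88 ± 0.24) and in the ZNF503 line (lower, −4.71 ± 0.36, adjusted p = 2.56e-05), and in the ZNF503 line at day 2 (−3.61 ± 1.25). GABRB2 (r = 0.789) and DTX3 (0.78) were the genes most like PAX7 over the libraries.

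ANXA1, CXCL8 and CST1, which act outside the cell or in inflammation, all had high levels in the ZEB2 line at day 0. The promoter windows of ANXA1 and CXCL8 held 0 and 4 CpGs and are shown because both hold a TATA box (TATAAA on either strand, in 11.5% of windows) and CXCL8 holds an NF-kB motif (GGAATTTCC on either strand, in 0.46%). Capitals mark TATAAA in ANXA1 and GGAATTTCC in CXCL8, and the motifs did not overlap. CST1 is named only.
ANXA1, chr9:73151615-73151914, plus strand: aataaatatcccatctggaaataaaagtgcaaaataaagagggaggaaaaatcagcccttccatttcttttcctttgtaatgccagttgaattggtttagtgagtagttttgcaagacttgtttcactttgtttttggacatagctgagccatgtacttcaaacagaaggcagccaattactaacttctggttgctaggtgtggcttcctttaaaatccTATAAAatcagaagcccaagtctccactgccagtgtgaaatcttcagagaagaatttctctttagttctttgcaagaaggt
CXCL8, chr4:73740319-73740618, plus strand: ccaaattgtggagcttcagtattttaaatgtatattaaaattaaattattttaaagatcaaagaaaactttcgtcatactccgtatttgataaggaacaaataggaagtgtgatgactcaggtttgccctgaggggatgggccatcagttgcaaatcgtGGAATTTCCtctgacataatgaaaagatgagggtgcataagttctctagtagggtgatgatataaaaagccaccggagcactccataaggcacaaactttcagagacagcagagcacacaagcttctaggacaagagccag
A match describes the letters and says nothing of a factor being bound.

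ANXA1 (chr9:75766781-75785309, plus strand) held 33.8 and 51.2 CPM in the NKX2-5 line at day 0, 52.9 and 66.4 in the ZEB2 line, 0.318 and 0.963 in WT and 0.157 and 0.0547 in the ZNF503 line. The NKX2-5 and ZEB2 libraries did not overlap, both were over WT, by 64.8-fold and 90.9-fold, and the ZNF503 libraries lay 6.74-fold under it. At day 2 no library of any line was above 0.271 CPM, and the NKX2-5 line had no count. All 8 libraries of that day were therefore near 0, the NKX2-5 and ZEB2 lines included. At day 6 it held 52.1 and 52.6 CPM in WT, 58.6 and 64.2 in the NKX2-5 line, 65.9 and 84.7 in the ZEB2 line and 76.8 and 69.4 in the ZNF503 line. WT was the lowest, and ANXA1 was higher in the ZEB2 line (log2 0.52 ± 0.14, edgeR adjusted p = 0.0284) and the ZNF503 line (0.47 ± 0.14, adjusted p = 0.0116) at a 5% FDR. These calls were lost without ZEB2 replicate 2 (0.33, adjusted p = 0.277), WT replicate 1 (0.114) or WT replicate 2 (0.0806) for the ZEB2 line and without ZNF503 replicate 1 (0.0624) for the ZNF503 line, and in 1 fit of all libraries for both (0.391 and 0.227). At day 10 it held 117 and 138 CPM in the NKX2-5 line, 139 and 119 in the ZEB2 line and 71.4 and 29.2 in WT. Both lines were higher than WT at a 5% FDR, by 1.34 ± 0.38 (adjusted p = 0.0247) and 1.35 ± 0.38 (adjusted p = 0.0472). Without WT replicate 4 the values were 0.85 (adjusted p = 0.0535) and 0.86 (0.107), and without ZEB2 replicate 3 or 4 the call of that line was also lost (0.226 and 0.16). The sum of the 8 fibroblast markers was also above that of WT in both lines at day 10. It was 3532 to 6268 CPM in the NKX2-5 line, 5966 to 6824 in the ZEB2 line and 852 to 1382 in WT. No marker was at or under 3 counts throughout a group, and 2 of 8 (DCN and POSTN) were called higher in each of these lines. Over the day 0 libraries the sum was already 217 to 412 CPM. At day 6 the same markers summed to 95.2 to 140 CPM in the ZNF503 line, 572 to 608 in the ZEB2 line and 593 to 881 in WT, with COL3A1 and DCN called lower in the ZNF503 line and none in the ZEB2 line, while ANXA1 was higher in both. At day 10, 7.31% (NKX2-5) and 1.46% (ZEB2) of all genes were called, and at day 6, 3.91% (ZNF503) and 0.462% (ZEB2). The part of these markers in either result was not tested. Among other annexins and formyl peptide receptors ANXA3 (log2 2.35 ± 0.18) and ANXA2 (1.22 ± 0.15) were called higher in the NKX2-5 line at day 0 and ANXA3 (2.45 ± 0.18) in the ZEB2 line, out of 8 tested, and none at day 2. Day 0 calls covered 4.03% (NKX2-5) and 2.20% (ZEB2) of all genes. CREB5 (r = 0.974) and NEDD4 (0.936) were most like ANXA1.

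CXCL8 (chr4:74606236-74609433, plus strand) held 56 and 287 counts in the ZEB2 line at day 0 (0.622 and 4.29 CPM), 15 and 20 in the NKX2-5 line (0.385 and 0.357), 4 and 1 in the ZNF503 line (0.0896 and 0.0137) and 0 and 2 in WT (0 and 0.0521). The ZEB2 and NKX2-5 libraries were above the rest, but the ZEB2 libraries were far apart. The ratio to WT was 83.2 (22.9 to 690) in the ZEB2 line and 14.0 (3.61 to 120) in the NKX2-5 line. At day 2 no library had a count. At day 6 it held 0.737 and 1.46 CPM in the NKX2-5 line, 0.217 and 0.0480 in WT, 0.358 and 0.0812 in the ZNF503 line and 0 in both ZEB2 libraries. CXCL8 was the only call of the NKX2-5 line at day 6, beside 4.71% of all genes: 9.60-fold higher than WT, log2 3.26 ± 0.80, edgeR adjusted p = 0.00577. That call was lost with DESeq2 (adjusted p = 0.0185), with a replicate block (0.0101), with the RefSeq rows summed per gene (0.017), in 1 fit of all libraries (0.0321), without NKX2-5 replicate 2 (log2 2.63, 0.0819) and without WT replicate 2 (log2 2.33, 0.0747). At day 10 the values of 1.20 and 0.0952 CPM in the NKX2-5 line, 0.248 and 0.0857 in the ZEB2 line and 0.726 and 0.871 in WT were not called. The NKX2-5 libraries spanned those of WT and the ZEB2 libraries lay under them. Of 12 other CXC chemokines and receptors 5 were called lower in the ZNF503 line at day 0, with a median of −1.10 (CXCL1, −2.64 ± 0.88, CXCL2, −2.53 ± 0.70, CXCL3, CXCL6 and PF4), while in each of the NKX2-5 and ZEB2 lines only CXCL14 was called, higher. At day 2 PF4 was higher in the ZNF503 line (2.11 ± 0.76) and no other was called. Of 12 NF-kB response genes IL6 was called in the NKX2-5 line (2.03 ± 0.65), none in the ZEB2 line, and ICAM1 (1.52 ± 0.25) and NFKB2 in the ZNF503 line, all higher at day 0, and none at day 2. Beside these 2 lists, day 0 calls covered 4.03% (NKX2-5), 2.20% (ZEB2) and 2.56% (ZNF503) of all genes. At day 2 the shares were 1.19%, 0.133% and 2.80%. Of the CXC list CXCL12 was lower in the NKX2-5 and ZNF503 lines at day 6. By day 10, 4 of 11 were higher in the NKX2-5 line (PF4V1, PF4, PPBP and CXCL16) and PF4 was lower in the ZEB2 line. Of the NF-kB list only CCL2 was called on these days, lower in the ZNF503 line at day 6. Day 6 shares were 4.71% (NKX2-5), 0.462% (ZEB2) and 3.91% (ZNF503), and day 10 shares 7.31% (NKX2-5) and 1.46% (ZEB2). TAC1 (r = 0.685) was most like CXCL8.

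CST1 (chr20:23728199-23731905, minus strand) held 12.0 and 15.4 CPM in the ZEB2 line at day 0 and 2.86 and 2.97 in WT, against 2 and 0 counts in the NKX2-5 line and 2 and 3 in the ZNF503 line. The ZEB2 line was 4.61-fold over WT, and WT was over the NKX2-5 line by a ratio of 138 (37.9 to 1150) and over the ZNF503 line by 68.7 (29.0 to 214). Its close paralogs CST4 and CST2 were ordered alike: CST4 had 243 to 263 counts in the ZEB2 line, 16 to 17 in WT and none in the other lines, and CST2 had 108 to 155, 8 to 9, 0 (NKX2-5) and 0 to 3 (ZNF503). CST4 (log2 2.89 ± 0.35) and CST2 (2.87 ± 0.48) were called higher in the ZEB2 line. These genes are near-identical copies that can share reads, so how the counts split among them is uncertain, and CST4 was also the gene most like CST1 (r = 0.915). At day 2 all libraries held 0.247 to 0.871 CPM of CST1 and at day 6 they held 0.868 to 2.74, with no line past a 5% FDR at day 6. At day 10 it held 1.68 and 0.333 CPM in the NKX2-5 line, 0.0620 and 0.257 in the ZEB2 line and 0.104 and 0 in WT, where it did not enter the test.

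ANKRD1 (chr10:92671853-92680844, minus strand) was at most at 7.09 CPM at days 0 and 2 and at 214 CPM or more at day 6. Its window is shown with its 2 matches to the TEAD core motif GGAATG (either strand, in 14.0% of windows) in capitals.
ANKRD1, chr10:90921038-90921337, minus strand: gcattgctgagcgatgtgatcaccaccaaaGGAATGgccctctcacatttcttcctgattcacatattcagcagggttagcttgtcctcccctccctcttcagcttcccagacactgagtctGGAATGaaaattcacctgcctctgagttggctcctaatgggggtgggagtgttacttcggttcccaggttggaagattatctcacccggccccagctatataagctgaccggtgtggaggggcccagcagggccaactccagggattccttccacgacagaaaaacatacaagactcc
At day 0 it held 3.68 and 7.09 CPM in the ZEB2 line, 3.07 and 3.33 in WT, 0.206 and 0.678 in the NKX2-5 line and 0.0896 and 0.0274 in the ZNF503 line. The ZEB2 libraries lay over WT (log2 0.72), and the NKX2-5 and ZNF503 libraries lay 6.94-fold and 59.9-fold under it. The ZNF503 libraries held only 4 and 2 counts, so that fold is imprecise. At day 2 WT held 0.452 and 0.988 CPM, the ZEB2 line 0.247 and 0.362, the NKX2-5 line 0.281 and 0.207 and the ZNF503 line 0.0557 and 0. Every line lay under WT, the ZNF503 line by 15.2-fold, at 5 and 0 counts against 14 and 16 in WT. At day 6, when ANKRD1 was abundant, it held 772 and 625 CPM in WT, 586 and 575 in the ZEB2 line, 625 and 631 in the ZNF503 line and 214 and 264 in the NKX2-5 line. Only the NKX2-5 line was lower than WT at a 5% FDR (log2 −1.56 ± 0.13, edgeR adjusted p = 1.38e-06). At day 10 the order of these lines had turned, with 361 and 227 CPM in the NKX2-5 line, 184 and 112 in WT and 88.6 and 86.4 in the ZEB2 line. ANKRD1 was higher than WT in the NKX2-5 line (1.00 ± 0.31, adjusted p = 0.0343) at a 5% FDR, which was missed without NKX2-5 replicate 1 (0.62, adjusted p = 0.0817) or WT replicate 4 (0.69, adjusted p = 0.174). It was not past that threshold in the ZEB2 line (−0.76 ± 0.31, adjusted p = 0.129). Other YAP and TEAD targets were called in the ZEB2 line at day 0, 8 of 21 tested and all higher, with a median of 0.73 beside 0.00 for all genes, led by MYOF (2.43 ± 0.46, adjusted p = 0.0141) and CCN2 (2.07 ± 0.22, adjusted p = 0.000413). In that line 2.20% of all genes were called at day 0. In the NKX2-5 line only CCN2 was called (1.30 ± 0.22), higher while ANKRD1 was lower, beside 4.03% of all genes. In the ZNF503 line none was called, beside 2.56%. At day 2 NT5E was higher in the NKX2-5 line, none was called in the ZEB2 line, and in the ZNF503 line TGFB2 was higher (3.87 ± 0.57) and MYOF lower (−3.69 ± 0.23). Day 2 calls covered 1.19%, 0.133% and 2.80% of all genes in these lines. Of 22 tested at day 6, FOXF2 (−3.17) and TGFB2 (−3.77) were lower in the NKX2-5 line and FOXF2 (−5.45) in the ZNF503 line. In the NKX2-5 line at day 10 F3 was higher (3.06) and TGFB2 lower (−4.01). None was called in the ZEB2 line on either day. The shares of all genes were 4.71% (NKX2-5), 0.462% (ZEB2) and 3.91% (ZNF503) at day 6, and 7.31% (NKX2-5) and 1.46% (ZEB2) at day 10. SYTL5 (r = 0.973) and PSTPIP2 (0.971) were most like ANKRD1, and ANXA1 and ANKRD1 were like each other at r = 0.816.

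SLC5A2 (chr16:31494323-31502181, plus strand) held 51 and 105 counts in the ZNF503 line at day 0 (1.14 and 1.44 CPM), 5 and 14 in the NKX2-5 line (0.128 and 0.250), 18 and 17 in the ZEB2 line (0.200 and 0.254) and 5 and 2 in WT (0.133 and 0.0521). The ZNF503 libraries stood apart, 13.7-fold over WT. SLC5A2 overlaps RUSF1 on the opposite strand, whose log2 fold change in that line was 0.65 ± 0.16, and since the strand setting of the counting is not given in the sources used here, reads of the 2 genes may not be told apart. At day 2 no library was above 0.274 CPM. At day 6 it held 0.995 and 0.421 CPM in the NKX2-5 line, 0.767 and 0.244 in the ZNF503 line, 0.0996 and 0.148 in the ZEB2 line and 0.130 and 0.0480 in WT. The NKX2-5 and ZNF503 lines lay over WT, by ratios of 8.06 (3.22 to 25.9) and 6.15 (2.26 to 20.9), with log2 3.03 ± 0.86 (edgeR adjusted p = 0.0112) and 2.56 ± 0.93 (adjusted p = 0.0337), past a 5% but not a 1% FDR. The 5% was missed in the NKX2-5 line without NKX2-5 replicate 1 (2.34, adjusted p = 0.102) or WT replicate 2 (2.33, 0.117), and in the ZNF503 line without ZNF503 replicate 1 (1.57, 0.305), WT replicate 1 (3.24, 0.0541) or WT replicate 2 (1.86, 0.22). At day 10 it held 0.336 and 1.05 CPM in the NKX2-5 line, 0.310 and 0.600 in the ZEB2 line and 0.104 and 0.218 in WT, with no call. Of 8 other SLC5A genes tested at day 0 and 4 at day 2 SLC5A9 alone was called, lower in the NKX2-5 line at day 0 (−2.92 ± 1.09) and in the ZNF503 line at day 2 (−3.23 ± 0.17). Calls in those 2 comparisons covered 4.03% and 2.80% of all genes.

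Of the 8 genes tested at day 6, 5 were past a 5% FDR with no fold limit in the NKX2-5 line (49.1% of all genes), 2 in the ZEB2 line (11.0%) and 5 in the ZNF503 line (55.7%), so that in the lines with the most calls the share of these genes was near that of all genes. In the ZNF503 line none of the 8 was past 8-fold at 1% FDR, where 3.91% of all genes were, with edgeR or with DESeq2, and 5 had an unadjusted p under 0.05. At day 10 the genes past a 5% FDR numbered 3 of 7 in the NKX2-5 line (43.9% of all genes) and 2 of 7 in the ZEB2 line (18.2%).

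**Figure D3:**
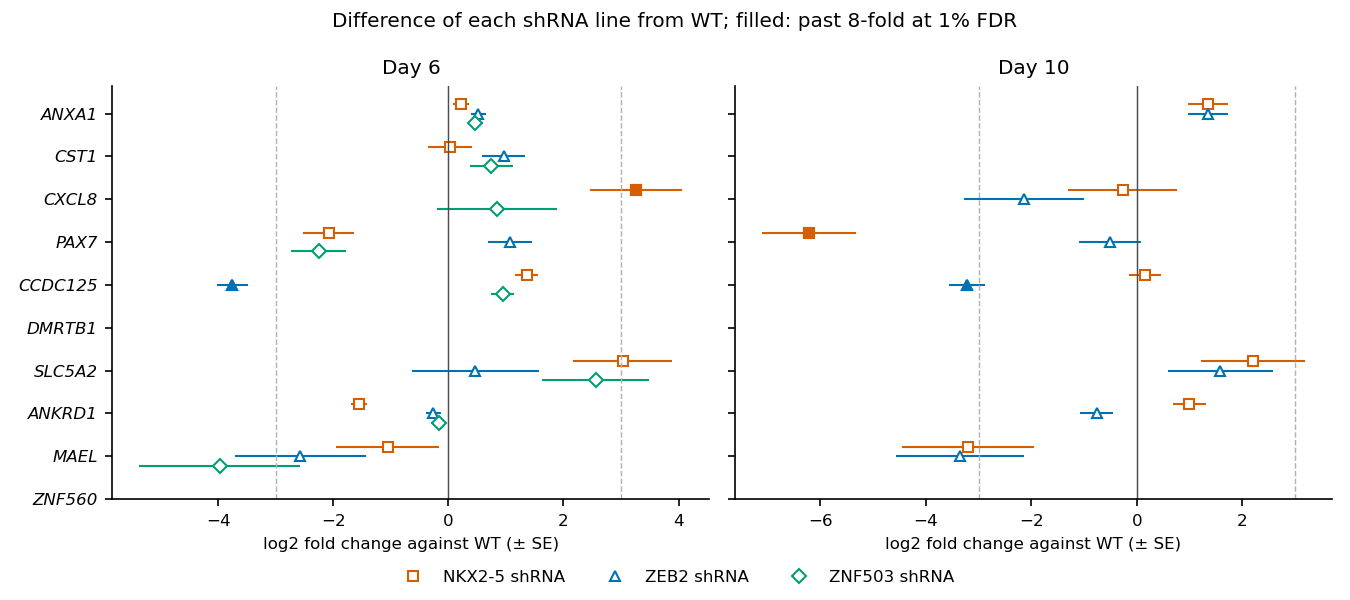
Log2 fold change of each shRNA line against WT (x axis, bars of 1 SE, dashed lines at 8-fold) for the genes tested at day 6 (left) and day 10 (right), with a symbol per line and filled symbols past 8-fold at 1% FDR. Groups with no count are left out, and the filled symbols are CXCL8 (3.26) and CCDC125 (−3.76) at day 6 and PAX7 (−6.22) and CCDC125 (−3.23) at day 10.

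The lines were also compared with each other at days 6 and 10, comparisons added after the values had been seen. The ZEB2 line differed from the ZNF503 line at day 6 in 2 of 8 genes, beside 3.48% of all genes: CCDC125 was lower (log2 −4.70 ± 0.27, edgeR adjusted p = 8.67e-08) and PAX7 higher (3.32 ± 0.46, adjusted p = 0.000102), the latter at 2.82 and under 8-fold without ZNF503 replicate 1. The NKX2-5 line differed from the ZEB2 line at day 6 in 3 genes, beside 4.59%: CCDC125 was higher (5.12 ± 0.27, adjusted p = 2.78e-08), PAX7 lower (−3.15 ± 0.43, adjusted p = 8.63e-05) and CXCL8 at least 8.08-fold higher (adjusted p = 0.000693). PAX7 fell under 8-fold without NKX2-5 replicate 2 (−2.60), and CXCL8 lost its call without ZEB2 replicate 1 (adjusted p = 0.0334). At day 10 the same 2 lines differed in CCDC125 (3.38 ± 0.34, adjusted p = 0.002) and PAX7 (−5.72 ± 0.88, adjusted p = 0.00742), beside 1.95%, and both calls were lost without ZEB2 replicate 3 or 4 (adjusted p 0.0265 and 0.0297 for CCDC125, 0.0592 and 0.0357 for PAX7). Between the NKX2-5 and ZNF503 lines at day 6 none of 8 was called with edgeR or DESeq2, beside 0.395% of all genes, with 2 at an unadjusted p under 0.05. At a 5% FDR 5 genes differed between the NKX2-5 and ZEB2 lines at day 6, where 44.4% of all genes did. Between the NKX2-5 and ZNF503 lines only ANKRD1 was past a 5% FDR (−1.39 ± 0.13, adjusted p = 7.99e-05), where 14.7% of all genes were.

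From day 6 to day 10 few of the genes changed by 8-fold. CST1 fell in WT by a ratio of 19.1 (5.14 to 161), log2 −4.09 ± 1.06, edgeR adjusted p = 0.00742, the only call beside 3.54% of all genes, and this was lost without any 1 of the 4 libraries (adjusted p 0.0114 to 0.0453). In the ZEB2 line CST1 fell 16.3-fold (−4.02 ± 0.81, adjusted p = 0.00162), again the only call beside 3.27%, and lost without replicate 3 of day 10 (−3.26, adjusted p = 0.0281). In the NKX2-5 line PAX7 fell by a ratio of 13.3 (3.49 to 113), log2 −3.69 ± 0.94, adjusted p = 0.00569, beside 6.83% of all genes, and the call was lost without replicate 1 of day 6 (−3.05, adjusted p = 0.0339) or replicate 1 of day 10 (−2.82, adjusted p = 0.0398). At a 5% FDR 2 of 8 genes changed in WT (47.2% of all genes), 3 in the NKX2-5 line (52.7%) and 3 in the ZEB2 line (49.5%). ANKRD1 fell in WT (−2.22 ± 0.25, adjusted p = 4.59e-05) and in the ZEB2 line (−2.73 ± 0.26, adjusted p = 2.26e-05), and its value in the NKX2-5 line was 0.34 (adjusted p = 0.246).

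The difference from WT changed between day 6 and day 10 at a 5% FDR for 3 of 8 genes in the NKX2-5 line, beside 26.0% of all genes. ANKRD1 went from lower to higher (change of 2.56 ± 0.35, edgeR adjusted p = 0.000344), PAX7 became lower still (−4.20 ± 1.09, adjusted p = 0.0144) and CCDC125 lost its excess (−1.20 ± 0.34, adjusted p = 0.0225). Without NKX2-5 replicate 1 of day 6 only ANKRD1 remained (PAX7 −3.56, adjusted p = 0.0554, and CCDC125 −1.25, adjusted p = 0.0619), and CCDC125 also lost its call without NKX2-5 replicate 2 of day 6 (0.0768), WT replicate 1 of day 6 (0.0809) or WT replicate 4 of day 10 (0.0559). In the ZEB2 line no gene was called with edgeR or DESeq2, beside 7.04% of all genes, and none had an unadjusted p under 0.05. Leaving out WT replicate 3 of day 10 gave 1 call, ANXA1.

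The genes next to these on the chromosome were compared in the same way, taking on each side the gene with the nearest start among those tested on that day. At day 0 the neighbours of CST1 were its paralogs CST4 (58524 bases away) and CST2 (72501 bases), and both were called in all 3 lines, in the direction of CST1 as given above. Apart from these, none of the other 18 neighbours was called in the NKX2-5 line and 1 each in the ZEB2 line (KLHDC7A beside PAX7, log2 1.05 ± 0.21) and the ZNF503 line (CXCL6 beside CXCL8, −1.22 ± 0.28), so that the calls among 20 neighbours were 2, 3 and 3. Beside these stood 4.03%, 2.20% and 2.56% of all genes called. At day 2 the called neighbours were ALDH1A1 beside ANXA1 in the NKX2-5 line (−2.06 ± 0.55) and RASSF6 beside CXCL8 (−2.45 ± 0.51) and GLIS1 beside DMRTB1 (−2.83 ± 0.38) in the ZNF503 line, with none of 20 in the ZEB2 line. The shares of all genes were 1.19% (NKX2-5), 2.80% (ZNF503) and 0.133% (ZEB2). In the ZEB2 line at day 0 CDK7, 2745 bases from CCDC125, had a log2 fold change of −0.01 ± 0.11 and AK6, 18175 bases away, of −0.03 ± 0.12, and at day 2 they had −0.20 ± 0.11 and 0.06 ± 0.12. Neither moved by an amount near that of CCDC125. At day 6, 4 of 20 neighbours were called in the NKX2-5 line (ALDH1A1, 3.07, RASSF6, 3.14, RORB, −4.09, and ILDR2, −5.82), none in the ZEB2 line and 1 in the ZNF503 line (ILDR2, −4.45, 42 bases from MAEL), and at day 10, 3 of 20 in the NKX2-5 line (ALDH1A1, 3.05, TRPM6 beside ANXA1, 4.74, and ALDH4A1 beside PAX7, −4.20) and none in the ZEB2 line. Calls over all genes were 4.71% (NKX2-5), 0.462% (ZEB2) and 3.91% (ZNF503) at day 6, and 7.31% (NKX2-5) and 1.46% (ZEB2) at day 10.

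**Figure D4:**
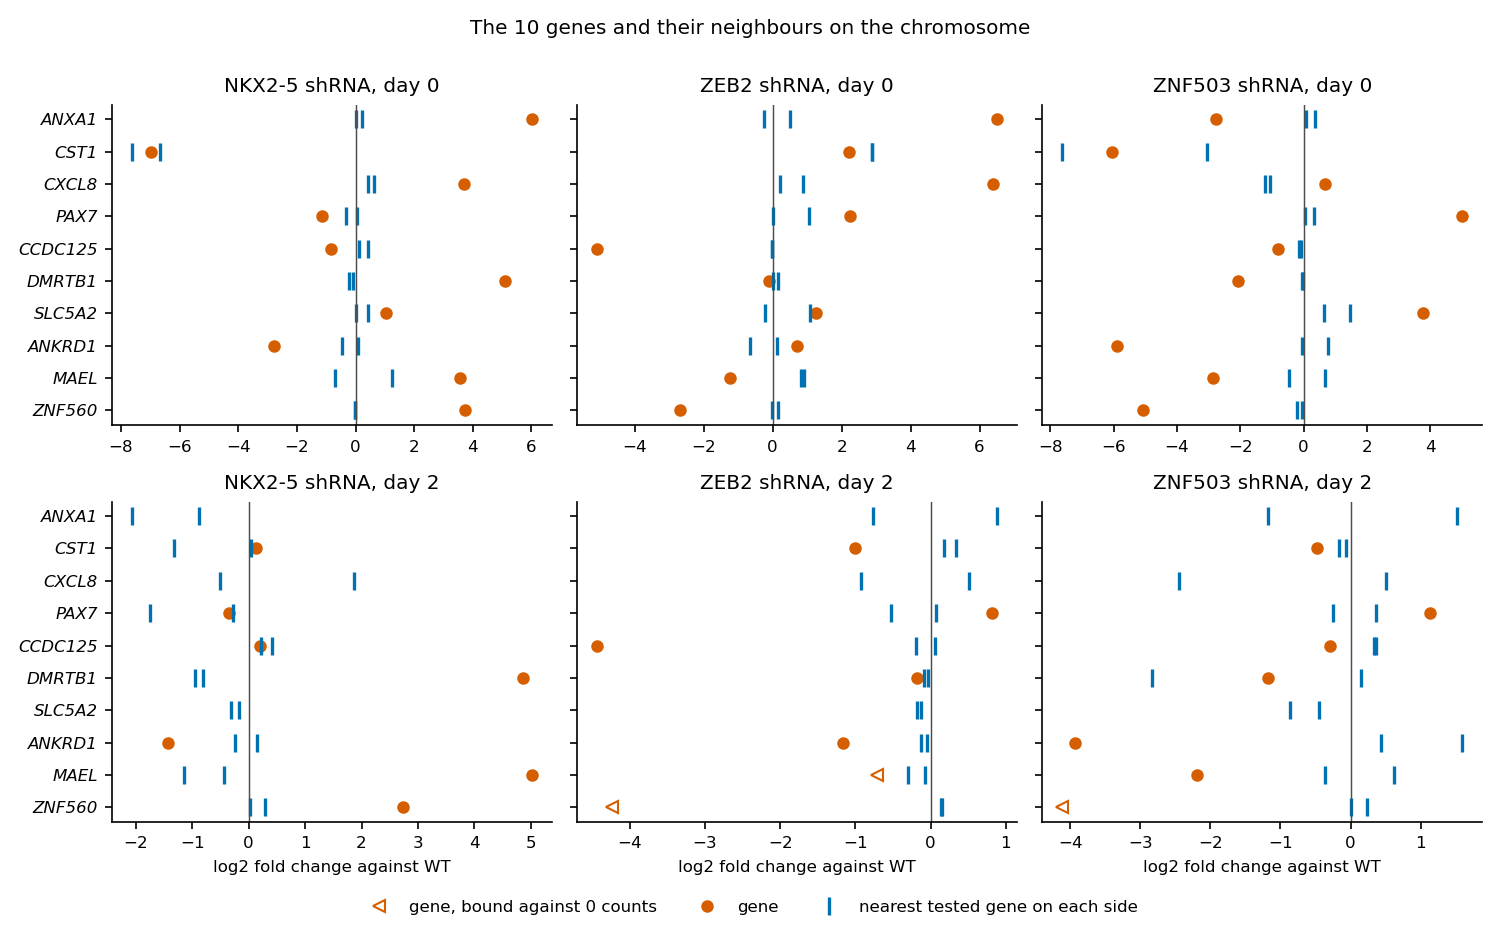
Log2 fold change against WT (x axis) at day 0 (top) and day 2 (bottom) in the NKX2-5, ZEB2 and ZNF503 shRNA lines for each of the genes tested (circles, or open triangles at a bound where the line had no count) and its nearest tested gene on each side (bars). Apart from CST4 and CST2 at day 0, drawn at fitted values that depend on the prior count where a line had no count, the neighbours lie between −2.83 and 1.86 in all panels, while CCDC125 in the ZEB2 line is at −5.08 at day 0 and −4.43 at day 2.

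The promoter windows of the group differed widely in base content. Of 9 genes with a window (all but CST1), the counts of CpG ran from 0 in ANXA1, 4 in CXCL8 and SLC5A2, 5 in ANKRD1 and 8 in DMRTB1 to 16 in ZNF560, 21 in PAX7, 24 in CCDC125 and 27 and 60 in the 2 windows of MAEL. Against the median of 14 over all windows, 4 of the 9 genes lay above it and 5 below. GGAATG was found in SLC5A2 as well as ANKRD1, TATAAA in ANXA1 and CXCL8, and CACGTG in CCDC125 and in the second window of MAEL. MAEL, ZNF560 and DMRTB1 had none of the 4 motifs in common. The part of any motif in the levels of these genes was not tested.

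**Figure D5:**
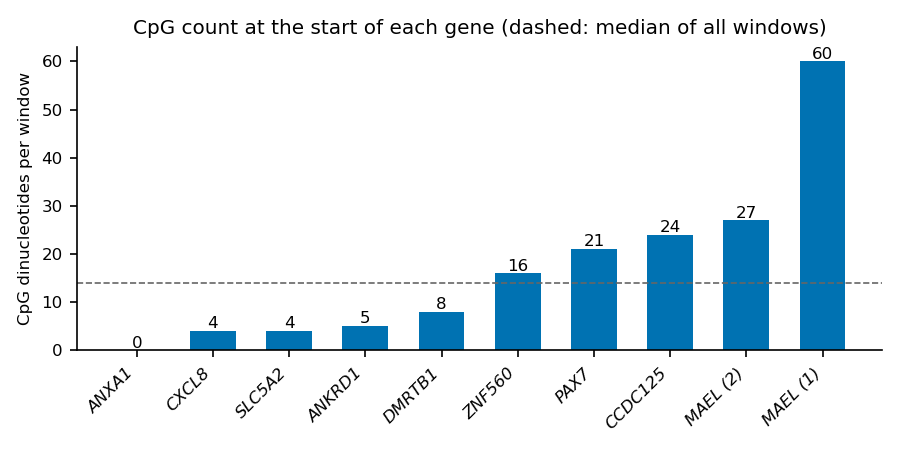
Number of CpG dinucleotides (y axis) in the promoter window of each gene, with 2 bars for the 2 starts of MAEL and a dashed line at the median of all windows (14). The bars run from 0 for ANXA1 to 60 for the first start of MAEL.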

How the data were processed

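RNA from H1 cells was sequenced, and the authors aligned reads with TopHat2 2.0.14 (their processing notes also list Bowtie2 2.2.1.0, SAMtools 0.1.19.0 and edgeR) to hg19, counted them with RSeQC and deposited raw counts per RefSeq accession. Of 41627 accessions, 96.8% (97.1% of counts) were matched to 23189 symbols, and each gene took its row of largest total. Of 34 libraries, 30 in 15 groups were used. In replicates 1 and 2 of WT and ZEB2 shRNA at day 10 the columns hold 1077 more rows (42704) that do not follow the accessions (Spearman rho to replicate 3 of at most 0.1224, against 0.9847 and 0.9931 for replicate 4), so they were not used. Counts below a low-count filter (filterByExpr) were dropped, the rest scaled by TMM and fitted per day with all groups of that day by edgeR 4.0.16 (quasi-likelihood, R 4.3.3), p-values being adjusted by Benjamini-Hochberg over the 16443 to 17500 genes of a fit. DESeq2 1.42.0, the other scaling, filter, fit, row and replicate alternatives are given with their effect below, and the fits were tested on simulated data. Positions are GENCODE v44 on GRCh37. The study's text calls the replicates biological, and no label says which cultures they came from, so p-values measure the spread between these samples. Replicate numbers are shared between groups, but no label says what they mark, and their deviations did not correlate at day 6 (r from −0.085 to 0.047).

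The members and the gene lists were chosen with earlier results of these data known. Genes named were the 10 members, the nearest gene tested on that day on each side, the 2 of each list with the largest change among those called at each of day 0 and day 2, the 2 most correlated genes of each member over 30 libraries (1 of those of CXCL8 is not reported here), and the targeted genes. Other list genes and cell type markers named were chosen after their values were seen.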

Additional observations from a re-analysis of the deposited data

Results flagged for a closer look

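These results stand out because the difference itself was tested and passed. At day 6 PAX7 (log2 3.32) and CCDC125 (−4.70) differed between the ZEB2 and ZNF503 lines, and PAX7 (−3.15), CCDC125 (5.12) and CXCL8 (8.19, a fitted value against 0 counts that depends on the prior count) between the NKX2-5 and ZEB2 lines. At day 10 PAX7 (−5.72) and CCDC125 (3.38) differed between the NKX2-5 and ZEB2 lines. The difference from WT changed between days 6 and 10 in the NKX2-5 line for PAX7 (−4.20), CCDC125 (−1.20) and ANKRD1 (2.56). Each PAX7 and CXCL8 result here lost its call when some 1 library was left out, as given above. So did CCDC125 at day 10 and in the change of the difference. Comparisons between lines were added after the values had been seen, and comparisons of one day share libraries.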

How the results depend on the processing

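Among log2 fold changes past a 5% FDR in the main fit, none reversed its sign under any alternative that gave a p-value. Over these 40 results, 338 values kept their side of the call threshold, 32 became weaker and 5 stronger. That threshold was 8-fold at 1% FDR, or 5% FDR for changes of the difference. A result never past it counted as kept even where it lost the 5% FDR. Counts of genes past the threshold moved more. With a 5% FDR and no fold limit they were 5 (NKX2-5), 2 (ZEB2) and 5 (ZNF503) against WT at day 6, 1 (NKX2-5 against ZNF503) and 5 (NKX2-5 against ZEB2) between lines, 3 (NKX2-5) and 2 (ZEB2) at day 10, and 2 (WT), 3 (NKX2-5) and 3 (ZEB2) from day 6 to day 10. For the NKX2-5 line at day 6 the count of 1 became 2 without a low-count filter and 0 with DESeq2, summed RefSeq rows or a replicate block; for the ZNF503 line the count of 0 became 1 without a filter (MAEL) and 1 in a fit of all libraries (ZNF560); for the NKX2-5 line at day 10 the latter gave 2 (CST1 and PAX7), and DESeq2 gave 5 changes of the difference in that line.

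Leaving out 1 library gave 0 to 1 calls against WT at day 6 in the NKX2-5 and ZNF503 lines, 1 to 2 for ZEB2 against ZNF503, 0 to 2 for the NKX2-5 line at day 10, 0 for the ZEB2 line at day 10, 0 to 2 between these lines at day 10, 0 from day 6 to day 10 in WT and 0 to 1 in either other line, and 1 to 4 (NKX2-5) and 0 to 1 (ZEB2) changes of the difference. A lone library was assumed to vary like the other groups.

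With the replicate block the calls over all genes at day 6 went from 774 to 769 (NKX2-5), 76 to 66 (ZEB2) and 643 to 631 (ZNF503), and at day 10 from 248 to 478 for ZEB2 against WT, or 562 with the crossed pairing added after seeing the data, since the replicate deviations had r = −0.143. No block could be made for the NKX2-5 line at day 10, which shares no number with WT. Without TMM the median of all genes shifted by 0.18 (ZEB2 against WT) and −0.15 (NKX2-5 against ZEB2) at day 10. Genes at 0 to 3 counts limit what these depths can show.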
